A study of Caenorhabditis elegans with 16 samples.

Results

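The insulin-like peptide genes of Caenorhabditis elegans were followed in arrested and newly fed first-stage (L1) larvae. They were taken as every counted gene named ins- with a number, plus daf-28, which gave 39 genes of 24654 counted. This rule uses names alone and no measured value, though it was set with earlier results of these data known. The gene ins-9 was not analysed here. Of the 39 genes, 30 had enough reads to be tested and 9 did not.

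Total RNA depleted of ribosomal RNA was sequenced as stranded paired-end libraries from whole larvae of 2 strains, cdk12-as and N2 wild-type. The cdk12-as strain carries an analog-sensitive form of CDK-12, a kinase of RNA polymerase II, which the bulky compound 3MB-PP1 is meant to block, and the labels do not say how many isolates it stands for. Embryos of both strains hatched and arrested unfed in medium kept at 20 °C over 12 h or more, and the larvae were sampled at that point (start) or kept for 4 h more under 3 conditions. These were OP50 bacteria as food with 1 µM 3MB-PP1 in DMSO (fed with inhibitor), OP50 with 0.1% DMSO (fed), and DMSO without food (starved). The start larvae had neither food, DMSO nor inhibitor, so the starved and start groups differ in DMSO as well as in time. Each of the 8 groups had 2 libraries. The series' stated aim was to compare the strains with and without the inhibitor in larvae that stayed starved or were fed.

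Insulin-like peptides are secreted ligands of the single insulin/IGF receptor of the worm, DAF-2. Ligands that activate DAF-2 act through the PI3 kinase AGE-1 and the kinases PDK-1 and AKT-1 to keep the FOXO transcription factor DAF-16 out of the nucleus, and other ligands antagonise the receptor. Larvae that hatch without food arrest in the L1 stage with DAF-16 active, and food restarts development in part through agonist ligands. Many of the peptides are made in sensory neurons, others in the intestine and further tissues, so a level in whole larvae sums over several sources. In such bulk samples a change in the number of cells of a type cannot be told apart from a change in RNA per cell.

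Gene counts summed to 18588196 to 56644943 per library, of which the 39 genes took 2782 to 8384. Levels are given in CPM, counts scaled to a common library size, computed with TMM-scaled sizes, a scaling that sets most genes equal between libraries, and 1 count was worth 0.0188 to 0.051 CPM. The ribosomal gene rrn-2.1 took 34.79 to 50.7% of gene counts in replicate 1 libraries and 20.3 to 33.39% in replicate 2 libraries. The gene cdk-12 was not called for food, at 0.04 ± 0.15 log2 (SE) in cdk12-as and 0.06 ± 0.15 in wild type, and its coding change cannot be checked from counts. Neuronal marker genes (7 of 8 counted) summed to 459 to 642 CPM over all libraries, while adult yolk genes reached at most 1.8 CPM and sperm genes at most 1.69 CPM.

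By the mean over the 8 groups, the antagonist genes ins-17 and ins-18 led the family's RNA. Divided by coding length, the mean level over the 8 groups was highest for ins-17, an antagonist that favours the dauer stage, at 114 CPM per kb. Next came ins-18, an antagonist resembling vertebrate insulin, at 89.5 CPM per kb, ins-27 at 68.7 and ins-30 at 43.8 CPM per kb. These 4 genes held 67.6% of the family's summed CPM. The antagonist ins-1 followed at 22.4 CPM per kb, and ins-35, ins-26, ins-20 and the agonist gene ins-3 stood at 18.9, 17.5, 12.2 and 9.31 CPM per kb. The agonist gene daf-28 ranked 10, at 8.7 CPM per kb. The agonist genes ins-4, ins-6 and ins-7 were lower, with ins-4 at 3.68, ins-6 at 2.11 and ins-7 at 1.22 CPM per kb. Replicate spread within a group often exceeded the step between neighbours in this order, as with ins-35 and ins-26 in the plot of levels per coding length.

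**Figure D1:**
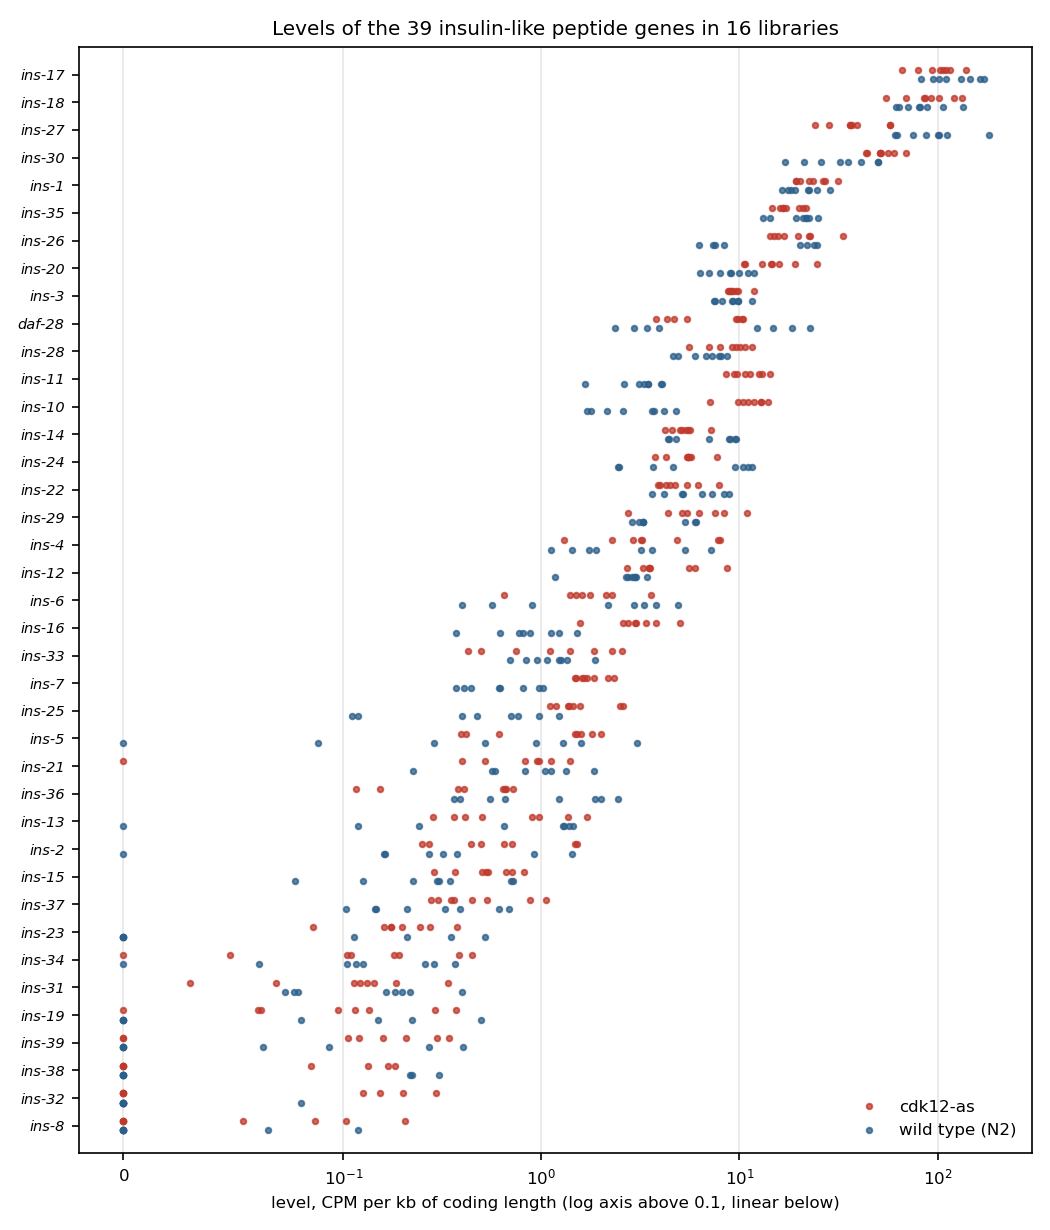
Level of each of the 39 genes in each of the 16 libraries, in CPM per kb of coding length on a log axis (linear below 0.1), with cdk12-as in red above wild type in blue. Levels span from 0 to above 100 CPM per kb. The red points of ins-10 and ins-11 lie above the blue ones, and those of ins-27 below.

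The 9 genes without a test were ins-8, ins-15, ins-19, ins-23, ins-31, ins-32, ins-34, ins-38 and ins-39. None had more than 13 counts in any library, and their totals over all 16 libraries were 8 to 85 counts. A count of 0 in 1 library allows a level of up to 0.0565 to 0.153 CPM, the value of 3 counts, so nothing can be said of these genes at this depth. Of the 30 tested genes, 17 had at least 10 counts in every library and 13 did not. In all, 18 genes were called in at least 1 of 13 comparisons, and 12 in none. The share of all genes called in at least 1 comparison was not counted, so the 18 cannot be judged against it. A gene is called where edgeR's quasi-likelihood test gave a Benjamini-Hochberg adjusted p under 0.05 over all 15845 genes tested.

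In wild type, 4 h of food raised 6 insulin-like genes and lowered 7, relative to larvae starved for the same time. Called genes were 46% of all genes tested in this comparison, 24.4% upward and 21.5% downward, so the 13 of 30 genes stand near the general share. The median log2 fold change of all 30 tested members, called or not, was 0.34, beside -0.01 over all genes. Agonist genes were found on both sides. Both fed libraries lay above both starved ones in 13 of the 30 tested genes and below them in 9, and these include every called gene. Lack of overlap thus does not set the called genes apart, and its share over all genes was not counted.

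The gene daf-28 encodes a DAF-2 agonist made in the ASI and ASJ sensory neurons and known to respond to food and pheromone. It lies on chromosome V from 19815414 to 19816116 on the plus strand (ce10), with 2 exons. In fed wild-type larvae it had 4.31 and 5.41 CPM, against 1.15 and 0.999 CPM in starved ones. The fed libraries were both well above the starved pair, a 4.46-fold rise (log2 2.16 ± 0.29 SE, edgeR adjusted p = 6.02e-05). This was the smallest adjusted p of the 13, and the call held whichever of the 4 libraries was left out.

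Its partners in promoting L1 development, ins-4 and ins-6, lie close together on chromosome II. The agonist gene ins-4 had 0.606 and 1.02 CPM in fed wild-type larvae, against 2.3 and 1.69 CPM in starved ones. The fed pair was lower than the starved pair, and the fall of 1.34 ± 0.44 on the log2 scale was called (edgeR adjusted p = 0.0238). That call did not hold without starved replicate 1 (0.148) or fed replicate 1 (0.201) of wild type. The agonist gene ins-6, also known for promoting exit from dauer, had 1.28 and 1.12 CPM in fed and 0.732 and 0.304 CPM in starved wild-type larvae. Its estimate of 1.14 ± 0.48 was upward but not called (edgeR adjusted p = 0.0738). Their neighbour ins-5 had 0.392 and 0.918 CPM fed and 0.157 and 0.0869 CPM starved in wild type. It rose by 2.25 ± 0.67 (edgeR adjusted p = 0.0151) on 11 and 18 counts fed and 6 and 2 counts starved, and the call was lost without starved replicate 1 (0.0534), starved replicate 2 (0.076) or fed replicate 2 (0.14).

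Among the more abundant genes, ins-26 and ins-30 rose. In wild type ins-26 had 6.77 and 8.16 CPM fed and 2.77 and 2.09 CPM starved, a 3.03-fold rise (log2 1.60 ± 0.24, edgeR adjusted p = 0.000112). For ins-30 the values were 15 and 18.1 CPM fed and 7.69 and 6.13 CPM starved, a 2.38-fold rise (log2 1.25 ± 0.19, edgeR adjusted p = 0.000144). In both genes each fed library exceeded each starved one by more than the spread within either pair. The gene ins-14 had 2.35 and 2.19 CPM fed and 1.07 and 1.09 CPM starved in wild type. Its pairs were tight and well apart, with a rise of 1.08 ± 0.23 (edgeR adjusted p = 0.00167). The rarest called gene was ins-13, with 9 and 6 counts in fed and 1 and 0 counts in starved wild-type libraries. The ratio of these sums, scaled for depth, was 19.3 with a 95% interval of 2.97 to 812 for counting error only (fitted log2 change 4.00 ± 0.92, edgeR adjusted p = 0.00326). The calls of these 4 genes held whichever library of the comparison was left out. Scaled to total gene counts in place of TMM, ins-5, ins-14 and ins-30 lost their calls, at adjusted p of 0.0512, 0.125 and 0.0542.

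The falls in wild type were led by ins-36 and ins-24. On chromosome I, ins-36 had 0.142 and 0.153 CPM fed and 0.732 and 0.956 CPM starved, with 4 and 3 counts behind the fed values. The fed pair was the lower, by 2.47 ± 0.44 on the log2 scale (edgeR adjusted p = 0.000479). For ins-24 the fed libraries had 1.14 and 0.765 CPM and the starved ones 3.48 and 2.95 CPM. That is a 3.32-fold fall (log2 -1.73 ± 0.29, edgeR adjusted p = 0.000331), and both calls held without any 1 library. The gene ins-37 fell by 2.31 ± 0.72 (edgeR adjusted p = 0.0191) on 3 counts in the fed and 20 in the starved wild-type libraries, a depth-scaled ratio of 0.193 (95% counting interval 0.0367 to 0.65). Its call held without starved replicate 2 and was lost without starved replicate 1 (0.0856), fed replicate 1 (0.0877) or fed replicate 2 (0.0879), and with DESeq2 (0.0711).

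The dauer-favouring antagonist ins-17, highest in the family by mean level, had 26.9 and 33.3 CPM in fed and 47.7 and 53.8 CPM in starved wild-type larvae. The pairs did not overlap, and the fall was 1.69-fold (log2 -0.75 ± 0.22, edgeR adjusted p = 0.014). It was not called without wild-type fed replicate 1 (0.113) or starved replicate 2 (0.0814). In contrast, the antagonists ins-18 and ins-1 were not called, with estimates of 0.36 ± 0.24 and 0.31 ± 0.23. The gene ins-20 had 2.03 and 2.25 CPM fed and 2.88 and 3.82 CPM starved (log2 -0.64 ± 0.19, edgeR adjusted p = 0.0155), and lost the call without fed replicate 1 (0.104) or starved replicate 2 (0.142). For ins-10 the values were 0.463 and 0.663 CPM fed and 1.07 and 0.956 CPM starved (log2 -0.88 ± 0.3, edgeR adjusted p = 0.0277). Its call was lost without fed replicate 1 (0.24), starved replicate 1 (0.134) or starved replicate 2 (0.0519), and with DESeq2 (0.0679).

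**Figure D2:**
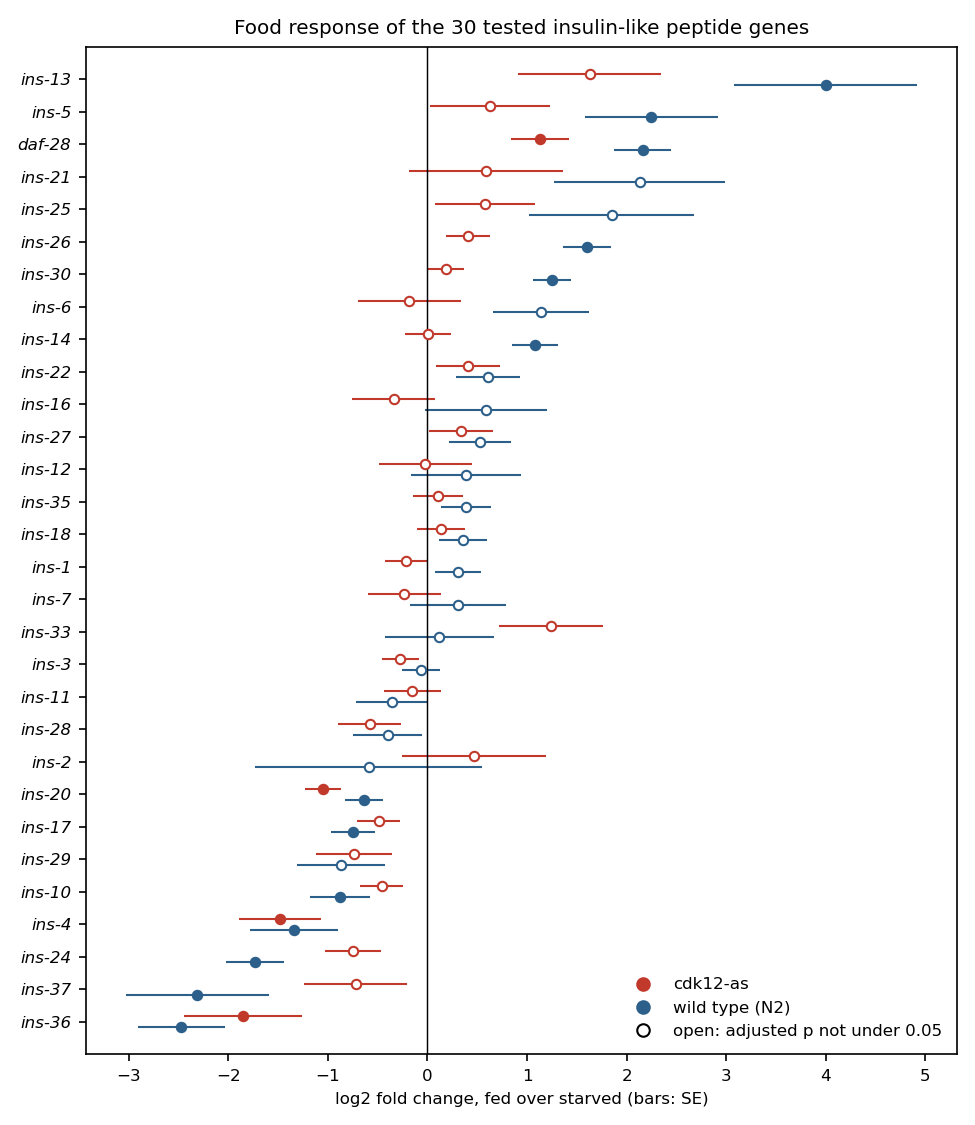
Log2 fold change, fed over starved, of the 30 tested genes, with cdk12-as in red above wild type in blue, bars for the standard error, and filled points for an adjusted p under 0.05. In wild type 6 genes lie to the right and 7 to the left as filled points. In cdk12-as daf-28 lies to the right and ins-20, ins-4 and ins-36 to the left.

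Sensory-neuron markers, which matter here because daf-28, ins-4 and ins-6 are made in such cells, were all counted (10 of 10), and str-3 was at 0 in at least 1 library. They summed to 132 to 138 CPM in fed and 93.3 to 110 CPM in starved wild-type larvae, with 2 of 10 called higher and 2 lower. Body wall muscle markers (3 of 4 counted) summed to 2860 to 3640 CPM fed and 7050 to 7190 CPM starved in wild type, and intestine markers (5 of 6 counted) to 1390 to 1610 CPM fed and 593 to 674 CPM starved. Their part in the insulin-like values was not tested.

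In cdk12-as without inhibitor, food raised daf-28 and lowered ins-4, ins-20 and ins-36, relative to starved larvae. These 4 of 30 genes compare with 27.7% called among all genes tested, 15.6% upward and 12.1% downward, and all 4 were also called in wild type. The median log2 change of the members and that of all genes were both -0.08. Fed cdk12-as larvae had 2.83 and 3.06 CPM of daf-28, against 1.11 and 1.6 CPM in starved ones. The fed pair was higher, by 2.19-fold (log2 1.13 ± 0.29, edgeR adjusted p = 0.0111), with the call lost without cdk12-as starved replicate 1 (0.122) or fed replicate 2 (0.0624).

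The most stable change in cdk12-as was that of ins-20, with 3.42 and 3.36 CPM fed and 6.11 and 7.94 CPM starved. Both fed libraries were far below both starved ones, a 2.07-fold fall (log2 -1.05 ± 0.18, edgeR adjusted p = 0.000757), and no left-out library ended the call. The agonist gene ins-4 had 0.73 and 1.03 CPM in fed and 2.5 and 2.57 CPM in starved cdk12-as larvae (log2 -1.48 ± 0.41, edgeR adjusted p = 0.017). Although the pairs lay far apart, its call was lost without starved replicate 1 (0.0615), starved replicate 2 (0.0633), fed replicate 1 (0.101) or fed replicate 2 (0.0513). For ins-36 there were 1 and 3 counts in fed and 8 and 4 counts in starved cdk12-as libraries (log2 -1.85 ± 0.59, edgeR adjusted p = 0.0457). That call too rested on every library, with adjusted p of 0.327 without starved replicate 1, 0.0539 without starved replicate 2, 0.115 without fed replicate 1 and 0.193 without fed replicate 2. Scaled to total gene counts, daf-28, ins-4 and ins-36 were not called (0.142, 0.0584 and 0.119), and ins-36 was not called with DESeq2 (0.14) or without the filter on low counts (0.0858). Sensory-neuron markers summed to 106 to 111 CPM in fed and at least 128 CPM in starved cdk12-as larvae, and their part was not tested.

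The food response itself was compared between strains as a difference of differences, cdk12-as minus wild type. Of the 30 genes, 2 were called, both lower, where 6.72% of all genes were called, 3.79% higher and 2.93% lower. These were ins-26 and ins-30, neighbours on chromosome I. Fed cdk12-as larvae had 5.61 and 7.57 CPM of ins-26, against 4.78 and 5.21 CPM in starved ones, an estimate of 0.41 ± 0.22 that was not called. The cdk12-as response was thus 1.19 ± 0.32 lower on the log2 scale than the wild-type one of 1.60 (edgeR adjusted p = 0.0478). For ins-30, cdk12-as had 18.7 and 20.5 CPM fed and 15.9 and 18.5 CPM starved, an estimate of 0.19 ± 0.18. Its response was 1.06 ± 0.26 lower than in wild type (edgeR adjusted p = 0.0323). Fed libraries of the strains overlapped for ins-26 and lay just apart for ins-30, while the starved libraries of both genes were higher in cdk12-as.

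Neither difference held without each library. For ins-26 the call was lost whichever of the 8 libraries was left out. The adjusted p was 0.14 without cdk12-as fed replicate 1, 0.0532 without fed replicate 2, 0.0915 without starved replicate 1 and 0.131 without starved replicate 2. For the wild-type libraries it was 0.0776 without fed replicate 1, 0.146 without fed replicate 2, 0.069 without starved replicate 1 and 0.173 without starved replicate 2. For ins-30 the call held without wild-type starved replicate 1. It was lost at 0.102 and 0.0763 without cdk12-as fed replicates 1 and 2, at 0.0534 and 0.108 without cdk12-as starved replicates 1 and 2, at 0.0552 and 0.116 without wild-type fed replicates 1 and 2, and at 0.134 without wild-type starved replicate 2.

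Both differences were also lost on scaling to total gene counts, at adjusted p of 0.592 for ins-26 and 0.644 for ins-30, and that of ins-26 without the filter on low counts (0.0555) or on total counts without rrn-2.1 (0.0633). The response of daf-28 was 1.02 ± 0.41 lower in cdk12-as and that of ins-14 was 1.06 ± 0.32 lower, and neither difference was called (edgeR adjusted p = 0.174 and 0.0681). Levels of ins-14 in cdk12-as were 1.23 and 1.36 CPM fed and 1.27 and 1.32 CPM starved, a flat 0.01 ± 0.23. The response of ins-4 differed by -0.13 ± 0.61 between the strains and was not called (edgeR adjusted p = 0.94), an interval too wide to show that they respond alike. All 13 genes called in wild type had the same sign in cdk12-as, and 11 of them a smaller estimate. As they were picked for their size in wild type, smaller values elsewhere are built into that count in part.

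**Figure D3:**
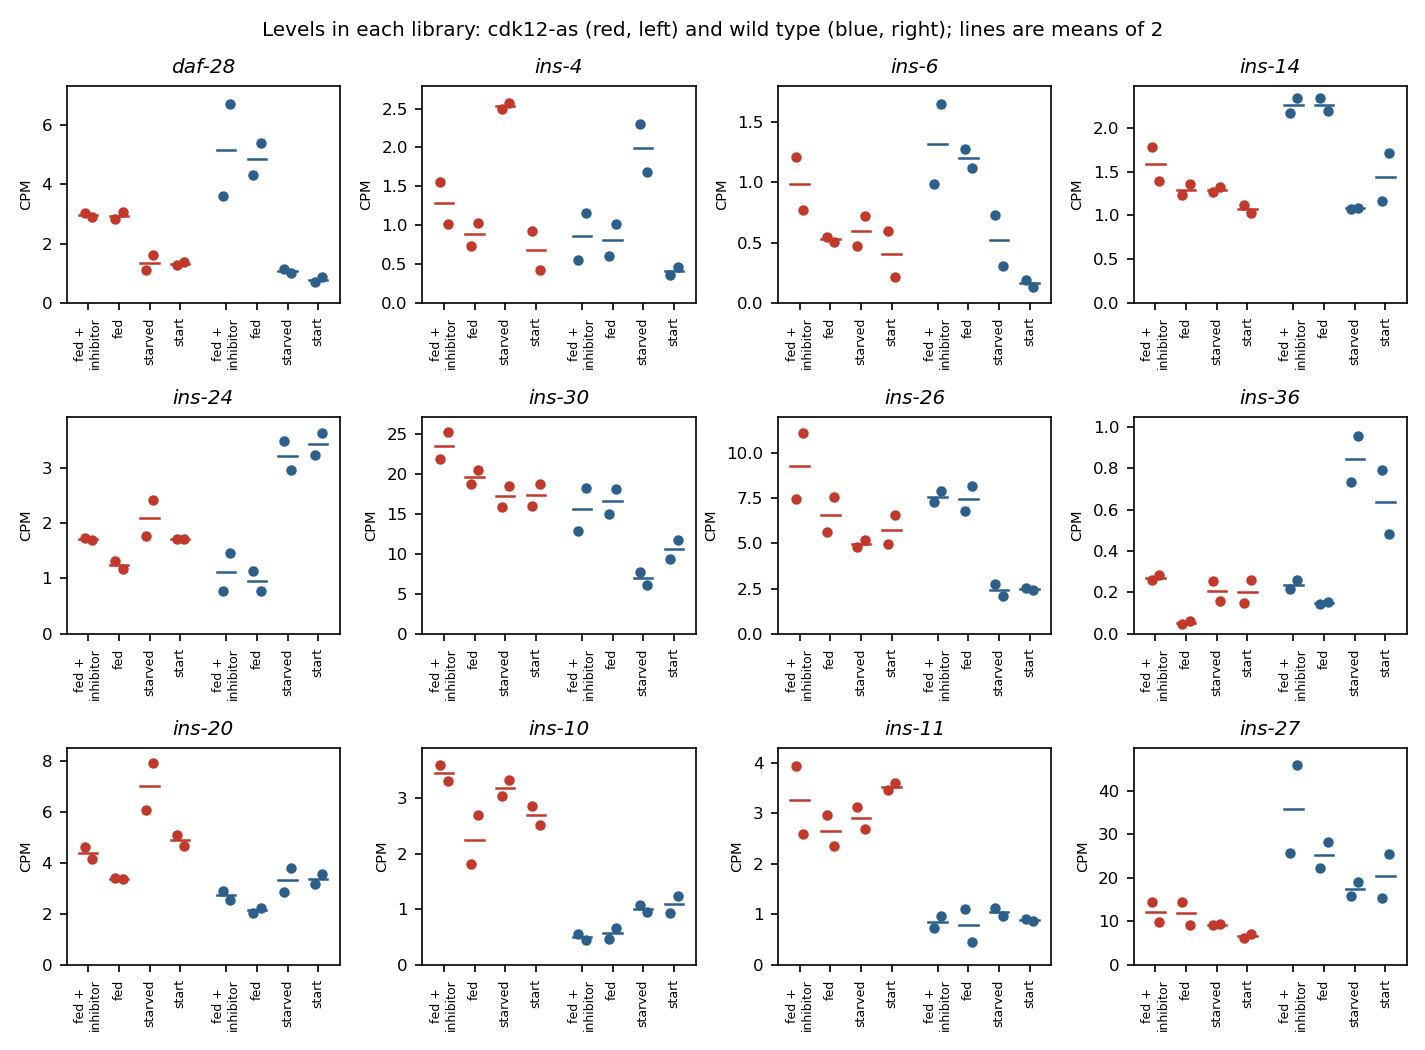
CPM in each library for 12 genes, cdk12-as in red on the left and wild type in blue on the right, each ordered fed with inhibitor, fed, starved and start, with a line at the mean of both libraries. The fed wild-type points of daf-28, ins-14, ins-26 and ins-30 stand above the starved ones, and those of ins-4, ins-24 and ins-36 below. In ins-10 and ins-11 all red points stand above all blue ones.

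In fed cdk12-as larvae the inhibitor gave 1 called gene of 30, and 3 had an unadjusted p under 0.05, where 12.1% of all genes were called, 3.77% upward and 8.37% downward. That gene was ins-36, with 0.26 and 0.282 CPM in fed larvae with inhibitor and 0.0456 and 0.0607 CPM in fed larvae without it. The counts behind these were 6 and 15 with inhibitor and 1 and 3 without. It rose by 2.22 ± 0.55 on the log2 scale (edgeR adjusted p = 0.0169), beside 0.253 and 0.16 CPM in starved cdk12-as larvae. The call was lost without fed replicate 1 (0.0802), fed replicate 2 (0.144) or fed with inhibitor replicate 2 (0.125) of cdk12-as, and on total count scaling (0.0969). DESeq2 gave it no adjusted p, and it did not pass the filter on low counts when only these groups were fitted. The difference from the wild-type inhibitor effect, 1.55 ± 0.77, was not called (edgeR adjusted p = 0.485).

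The agonist daf-28 had 3.03 and 2.9 CPM in fed cdk12-as larvae with inhibitor and 2.83 and 3.06 CPM without it. The pairs overlapped, with an estimate of 0.00 ± 0.27. Estimates for the 30 genes ran from -0.12 to 2.22, with a median of 0.27 beside 0.06 over all genes. In these larvae the sensory-neuron markers summed to 65.1 to 66.1 CPM with inhibitor and 106 to 111 CPM without it, and among the 10 markers che-3 alone was called, lower by 1.38 ± 0.14. Its part in the insulin-like values was not tested.

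For the inhibitor in fed wild-type larvae edgeR called 0 of 30 insulin-like genes, and 0 had an unadjusted p under 0.05. DESeq2 called 0 as well, and 0% of all genes were called by edgeR. The difference between the strains in inhibitor effect likewise gave 0 called insulin-like genes with edgeR and 0 with DESeq2, and 0 at an unadjusted p under 0.05, where 6.94% of all genes were called, 0.915% higher and 6.02% lower. With 2 libraries a group such a result does not show that the inhibitor had no effect on these genes.

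Fed cdk12-as larvae with inhibitor were also set against starved cdk12-as larvae, which are the same starved libraries as in the food comparison without inhibitor. Here 3 genes were called higher and 1 lower of 30, where 34.1% of all genes were called, 17% higher and 17.1% lower. The rises were those of daf-28 (log2 1.14 ± 0.29, edgeR adjusted p = 0.00856), ins-26 (0.91 ± 0.22, 0.00674) and ins-13 (2.1 ± 0.68, 0.0298). The gene ins-20 fell by 0.68 ± 0.17 (edgeR adjusted p = 0.00913). Left-out libraries ended each of these calls. Without starved replicate 1, daf-28 (0.105), ins-13 (0.17) and ins-26 (0.0554) were lost, and without starved replicate 2, ins-13 (0.0976) and ins-20 (0.104). Without the inhibitor-treated replicate 2, ins-13 (0.258), ins-20 (0.0746) and ins-26 (0.0969) were lost, and on total count scaling daf-28 (0.174), ins-13 (0.11) and ins-26 (0.211).

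During 4 h of further starvation, edgeR called ins-4 alone among the insulin-like genes, and it rose in both strains. In cdk12-as it had 2.5 and 2.57 CPM starved and 0.93 and 0.417 CPM at the start. In wild type it had 2.3 and 1.69 CPM starved and 0.359 and 0.457 CPM at the start. Every starved library stood above every start library. The rise was 3.97-fold in cdk12-as (log2 1.99 ± 0.43, edgeR adjusted p = 0.0194) and 4.93-fold in wild type (log2 2.30 ± 0.45, edgeR adjusted p = 0.00975). Among all genes 5.82% were called in cdk12-as, 2.74% higher and 3.08% lower, and 6.12% in wild type, 3.04% higher and 3.07% lower. The fed larvae, with 0.73 and 1.03 CPM in cdk12-as and 0.606 and 1.02 CPM in wild type, lay nearer to the start level than to the starved one. In wild type both fed values were above both start values, and in cdk12-as fed and start values overlapped. The lower ins-4 with food is thus a difference from starved larvae and not a fall from the start level.

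The cdk12-as call of ins-4 was lost without starved replicate 1 (0.0772), starved replicate 2 (0.101) or start replicate 2 (0.108), when only these groups were fitted (0.0713), and on total count scaling (0.0621). The wild-type call was lost without start replicate 1 (0.122) or starved replicate 1 (0.091). Among genes not called, ins-2 had 0.158 and 0.0802 CPM starved and 0.483 and 0.477 CPM at the start in cdk12-as, and 0.0523 and 0.0869 CPM starved and 0.455 and 0.295 CPM at the start in wild type. Its estimates of -1.93 and -2.46 had edgeR adjusted p of 0.0869 and 0.0576. With a replicate block ins-30 was also called in wild type, lower by 0.57 ± 0.14 (0.0221), as it was with DESeq2 (0.0467) and on total counts without rrn-2.1 (0.0312). The block called a further gene in wild type that no comparison of the main fit called, and its name is not given here. In cdk12-as the block called ins-17, higher by 0.47 ± 0.12 (0.0179). Without cdk12-as start replicate 2, ins-17 was called there too (0.0368).

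A strain difference was called for 15 of the 30 tested insulin-like genes in at least 1 condition, with cdk12-as called higher in 9 and lower in 6. The share of all genes called in at least 1 condition was not counted, so the 15 cannot be set against it. Estimates of some of these genes changed sign between conditions, as for daf-28 (0.77 at the start and -0.8 with inhibitor). By condition, 8 were higher and 2 lower in fed larvae with inhibitor, where 42.4% of all genes were called, 19.8% higher and 22.5% lower. In fed larvae 3 were higher and 2 lower, where 28.9% of all genes were called, 12.7% higher. In starved larvae 8 were higher and 1 lower, where 18.1% of all genes were called, 9.8% higher and 8.28% lower. At the start 7 were higher and 4 lower, where 24.4% of all genes were called, 12.8% higher and 11.6% lower. The strains differed before any food or inhibitor was given.

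Higher in cdk12-as under all 4 conditions were 3 genes, ins-10, ins-11 and ins-20. The gene ins-10 ranged from 1.82 to 3.59 CPM in the 8 cdk12-as libraries (median 2.95) and from 0.439 to 1.24 CPM in the 8 wild-type ones (median 0.798). No cdk12-as library overlapped a wild-type one, and the log2 difference was 2.78 ± 0.25 in fed larvae with inhibitor, 2.05 ± 0.28 fed, 1.64 ± 0.24 starved and 1.31 ± 0.23 at the start, with edgeR adjusted p of 2.24e-06 to 0.00179. These calls held without any 1 library and under total count scaling. The gene ins-11, whose product in the intestine is known to act in pathogen avoidance, ranged from 2.35 to 3.94 CPM in cdk12-as (median 3.04) and from 0.459 to 1.12 CPM in wild type (median 0.932). Its log2 differences of 1.47 to 1.99 had edgeR adjusted p of 0.000255 to 0.00648, and the starved one was lost without wild-type starved replicate 2 (0.0589). For ins-20 the ranges overlapped, at 3.36 to 7.94 CPM in cdk12-as (median 4.66) and 2.03 to 3.82 CPM in wild type (median 2.9), with log2 differences of 0.53 to 1.08.

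The calls of ins-20 were less firm. The start call was lost without cdk12-as start replicate 1 (0.184) or 2 (0.0857) or wild-type start replicate 1 (0.2) or 2 (0.117). The fed call was lost without cdk12-as fed replicate 1 (0.0686) or 2 (0.0798) or wild-type fed replicate 1 (0.131) or 2 (0.0604). With inhibitor it was lost without cdk12-as replicate 1 (0.0554) or wild-type replicate 2 (0.0605). The starved call, 1.08 ± 0.18 (edgeR adjusted p = 0.00144), held without any 1 library.

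Genes called higher in 3 conditions were ins-7, ins-16 and ins-30. The agonist gene ins-7, which DAF-16 is known to repress, ranged from 0.521 to 0.818 CPM in cdk12-as (median 0.585) and from 0.13 to 0.357 CPM in wild type (median 0.216). All 8 cdk12-as values lay above the wild-type ones, and the called log2 differences were 1.66 ± 0.41 with inhibitor, 1.34 ± 0.42 starved and 1.92 ± 0.41 at the start. The starved call was lost without cdk12-as starved replicate 1 (0.274) or 2 (0.0613) or wild-type starved replicate 2 (0.243), and the start call without wild-type start replicate 1 (0.0595). For ins-16 cdk12-as had 0.365 to 1.17 CPM and wild type 0.0869 to 0.356 CPM, ranges that only just stay apart.

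The start call of ins-16 was lost without cdk12-as start replicate 2 (0.081) or wild-type start replicate 2 (0.0762), its starved call without cdk12-as starved replicate 2 (0.0872) or wild-type starved replicate 2 (0.12), and its call with inhibitor without wild-type replicate 1 (0.0531). The starved difference of ins-30, 1.31 ± 0.19 (edgeR adjusted p = 0.000573), came from the same starved libraries as the food responses above and is not separate from them. It held without any 1 library. The ins-30 call at the start was lost without cdk12-as start replicate 2 (0.0826) or wild-type start replicate 1 (0.108), and the call with inhibitor without cdk12-as replicate 2 (0.114) or wild-type replicate 1 (0.155).

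Higher calls in 2 conditions each were made for ins-26 and ins-25. At the start ins-26 had 4.98 and 6.55 CPM in cdk12-as and 2.51 and 2.44 CPM in wild type (log2 1.22 ± 0.23, edgeR adjusted p = 0.00239), which held without any 1 library. After starvation the difference was 1.02 ± 0.24 (edgeR adjusted p = 0.0104), lost without cdk12-as starved replicate 2 (0.0576) or wild-type starved replicate 2 (0.0985). With inhibitor ins-25 had 0.563 and 0.301 CPM in cdk12-as and 0.0241 and 0.103 CPM in wild type, from 13 and 16 counts in cdk12-as and 1 and 4 counts in wild type (log2 2.62 ± 0.61, edgeR adjusted p = 0.00408). This call held under every alternative run, with adjusted p of 0.00338 to 0.0452. The starved ins-25 libraries held 10 and 6 counts in cdk12-as and 1 and 2 counts in wild type, a depth-scaled ratio of 5.78 (95% counting interval 1.65 to 30.9). The starved call of ins-25 was lost without the filter on low counts (0.06) and without cdk12-as starved replicate 1 (0.19) or 2 (0.0834) or wild-type starved replicate 1 (0.297) or 2 (0.0721).

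Lower in cdk12-as was chiefly ins-27, with 6.1 to 14.5 CPM (median 9.23) against 15.4 to 45.8 CPM in wild type (median 23.8). The 8 cdk12-as values all lay below the 8 wild-type ones. The log2 differences were -1.56 ± 0.32 with inhibitor, -1.10 ± 0.32 fed and -1.62 ± 0.32 at the start, with edgeR adjusted p of 0.0016, 0.0214 and 0.00358, and the starved one, -0.91 ± 0.32, missed the threshold at 0.0693. That starved difference was called with DESeq2 (0.0156), without the filter on low counts (0.0354), with a replicate block (0.0415) and when only these groups were fitted (0.0071). The fed call was lost without cdk12-as fed replicate 2 (0.175) or wild-type fed replicate 2 (0.119). The gene ins-36 was lower in starved cdk12-as larvae by 1.96 ± 0.39 (edgeR adjusted p = 0.00468) and at the start by 1.56 ± 0.37 (0.00943). Its start call was lost without cdk12-as start replicate 1 (0.0745) or wild-type start replicate 1 (0.105).

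Called in a single condition each, daf-28 was lower in cdk12-as with inhibitor (log2 -0.80 ± 0.26, edgeR adjusted p = 0.0258), ins-14 fed (-0.80 ± 0.22, 0.0163), and ins-17 (-0.77 ± 0.22, 0.0236) and ins-24 (-1 ± 0.26, 0.0151) at the start. The gene ins-37 was higher in cdk12-as with inhibitor (1.90 ± 0.57, 0.0174). With a replicate block, daf-28 in fed larvae (0.0207), ins-14 with inhibitor (0.0454) and ins-17 after starvation (0.0347) were called lower as well. With inhibitor, sensory-neuron markers summed to 65.1 to 66.1 CPM in cdk12-as and 121 to 143 CPM in wild type, with 4 of 10 called lower and none higher, and their part in the daf-28 value was not tested. Each of these calls failed without at least 1 library. For daf-28 these were cdk12-as replicates 1 (0.0746) and 2 (0.126) and wild-type replicate 2 (0.342) with inhibitor, and for ins-37 cdk12-as replicate 2 (0.442) and wild-type replicate 1 (0.103). The fed call of ins-14 failed without cdk12-as replicate 1 (0.0802) or 2 (0.0669) or wild-type replicate 1 (0.0987) or 2 (0.0506). At the start, ins-17 failed without cdk12-as replicate 1 (0.197) or wild-type replicate 2 (0.164), and ins-24 without cdk12-as replicate 1 (0.0798) or 2 (0.0701) or wild-type replicate 2 (0.0873).

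Total count scaling ended 18 of the 35 strain calls, among them all 4 of ins-20 (adjusted p of 0.0757 to 0.455), and left those of ins-10 and ins-11. With DESeq2 the calls of ins-20 (0.0633) and ins-36 (0.0618) at the start, ins-25 (0.107) and ins-7 (0.135) after starvation, and ins-37 with inhibitor (0.0906) were lost. Sperm markers (4 of 4 counted, with msp-3, msp-19 and msp-142 at 0 in at least 1 library) summed to 1.21 to 1.69 CPM in cdk12-as and 0.0965 to 0.349 CPM in wild type. Their part in the strain differences was not tested.

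**Figure D4:**
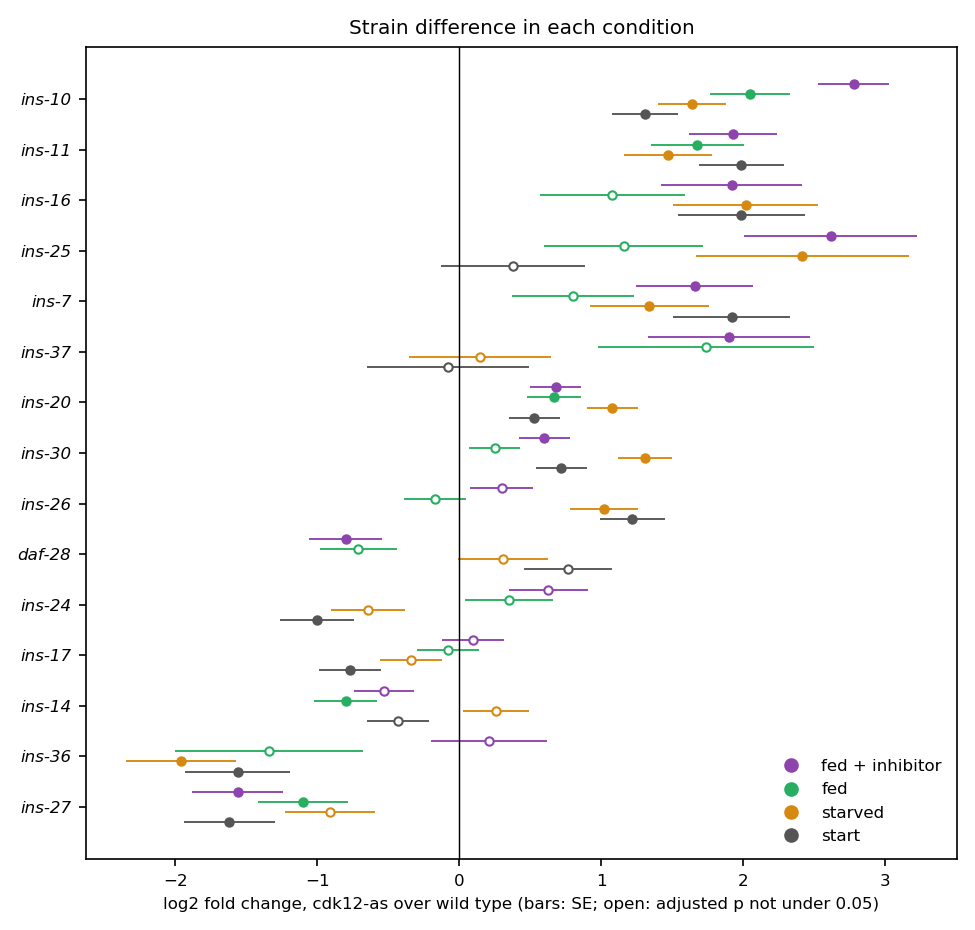
Log2 fold change, cdk12-as over wild type, of the 15 genes called in at least 1 condition, with a colour for each condition, bars for the standard error and filled points for an adjusted p under 0.05. For ins-10, ins-11 and ins-20 all 4 points are filled and to the right of 0. For ins-27 all 4 lie to the left, 3 of them filled.

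Many members lie beside each other in the genome. With a gap of at most 20000 bases, 26 of the 39 genes formed 7 runs. The largest run, on chromosome I from 14012451 to 14037753 (ce10), held ins-28, ins-29, ins-25, ins-27, ins-24, ins-30 and ins-26 in this order. In wild type food raised its last 2 genes, ins-30 and ins-26, and lowered ins-24, which lies next to ins-30 on the same minus strand. The other 4 genes of the run were not called, with estimates from -0.87 to 1.85. The strain difference also ran both ways there. In cdk12-as, ins-27 was called lower in 3 of 4 conditions and ins-24 at the start only. Called higher were ins-30 in 3 conditions and ins-25 and ins-26 in 2 each.

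The second run, on chromosome II from 5988512 to 6011205, held ins-2, ins-3, ins-4, ins-5, ins-6 and ins-20. Relative to starved larvae, food in wild type lowered ins-4 and ins-20 and raised ins-5, which sits between ins-4 and ins-6 on the same strand. The agonist gene ins-3 stayed uncalled there, at 2.99 and 2.4 CPM fed and 3.19 and 2.43 CPM starved in wild type. By these calls, neighbours in both runs moved in opposite directions. On chromosome II the calls of ins-4, ins-5 and ins-20 were each lost without some single libraries, as given above. Among all genes 24.4% were called higher and 21.5% lower, and neighbouring genes outside this family were not compared. No exon of any insulin-like gene overlapped an exon of another counted gene on ce10, while the spans of daf-28 and ins-36 overlapped those of other counted genes outside exons.

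**Figure D5:**
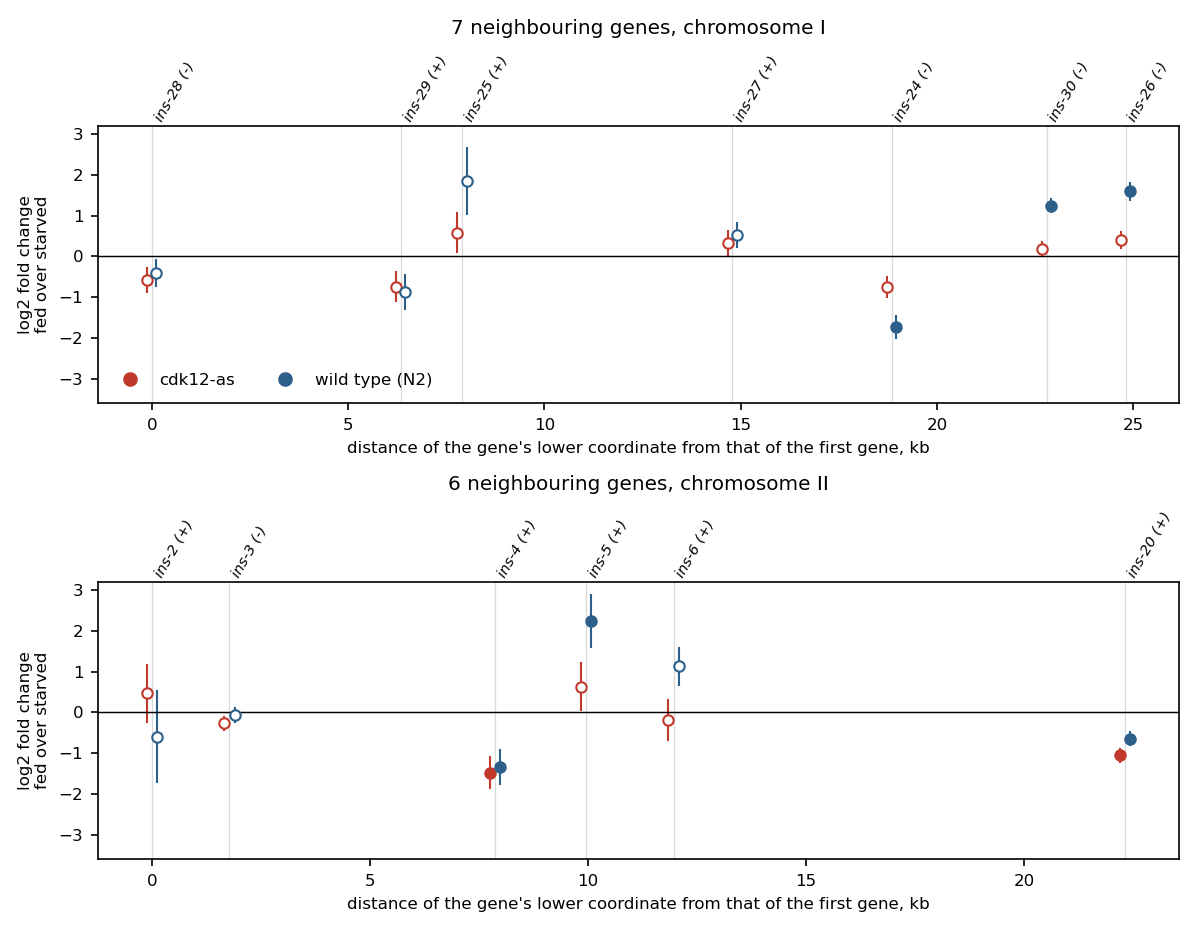
Log2 fold change, fed over starved, of the genes of both large runs, placed by the distance of each gene's lower coordinate from that of the first in kb, with strand in brackets, cdk12-as in red and wild type in blue. Bars are standard errors and filled points have an adjusted p under 0.05. In wild type, ins-24 falls beside the rising ins-30 and ins-26 on chromosome I, and ins-4 falls beside the rising ins-5 on chromosome II.

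Downstream of the ligands, the receptor gene was lower in fed larvae. In cdk12-as daf-2 had 247 and 278 CPM fed and 398 and 454 CPM starved (log2 -0.70 ± 0.11, edgeR adjusted p = 0.000424). In wild type it had 213 and 218 CPM fed and 444 and 463 CPM starved (log2 -1.07 ± 0.11, edgeR adjusted p = 4.99e-06). The FOXO gene daf-16 fell as well, by 0.62 ± 0.15 in cdk12-as and 0.74 ± 0.15 in wild type. Of 15 tested genes from the receptor to DAF-16, 2 rose and 3 fell with food in cdk12-as, and 5 rose and 4 fell in wild type. Among all genes 27.7% were called in cdk12-as and 46% in wild type. In wild type the kinase gene akt-1 fell by 1.16 ± 0.09, while par-5, a 14-3-3 protein that holds DAF-16 in the cytoplasm, and hcf-1, a nuclear negative regulator of DAF-16, rose by 0.74 ± 0.09 and 0.63 ± 0.09.

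Genes for peptide processing and dense core vesicle release, which any secreted insulin depends on, numbered 13 among those tested. With food 1 rose and 3 fell in cdk12-as, where 15.6% of all genes rose and 12.1% fell, and 3 rose and 8 fell in wild type, where 24.4% of all genes rose and 21.5% fell. The carboxypeptidase gene egl-21, which trims peptide precursors, and unc-108, a Rab of dense core vesicle maturation, fell by 0.51 ± 0.1 and 0.56 ± 0.13 in wild type, and hid-1 and the proprotein convertase aex-5 rose by 0.65 ± 0.08 and 0.64 ± 0.11. Among 10 tested genes of sensory and TGF-β dauer signalling, 1 rose and 3 fell in each strain, again beside 27.7% of all genes called in cdk12-as and 46% in wild type. In wild type the receptor gene daf-1 rose by 0.47 ± 0.09, and daf-14, daf-4 and tax-4 fell by 0.64 ± 0.09, 0.55 ± 0.13 and 0.53 ± 0.17.

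Of 8 tested genes that DAF-16 is known to activate, 1 rose and 5 fell in cdk12-as, and none rose and 5 fell in wild type, beside 12.1% and 21.5% of all genes that fell in cdk12-as and in wild type. Metallothionein mtl-1 had 35.5 and 43.8 CPM fed and 83.8 and 100 CPM starved in cdk12-as, and 5.38 and 4.64 CPM fed and 52.9 and 59.8 CPM starved in wild type. It fell by 1.21 ± 0.17 in cdk12-as and 3.49 ± 0.19 in wild type, a difference of 2.27 ± 0.25 between the strains (edgeR adjusted p = 0.000433). The small heat shock genes hsp-12.3 and hsp-12.6 fell in wild type by 2.00 ± 0.23 and 2.02 ± 0.33, and the catalase ctl-2 by 1.41 ± 0.25. The list's median log2 change was -0.90 in cdk12-as and -1.55 in wild type, beside -0.08 and -0.01 over all genes. With the inhibitor in fed cdk12-as larvae, none of these 8 genes was called, and 3 of the 15 receptor pathway genes were called lower, where 12.1% of all genes were called and 8.37% lower.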

How the data were processed

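RNA was sequenced from 16 libraries, 2 in each of 8 groups of strain and condition given by the labels. The labels name no separate cultures, so the p-values reflect the spread among these libraries and that spread may be technical. The authors deposited whole-number counts per gene. Per the submitters' processing notes, the tools were Trimmomatic, HISAT2, featureCounts, DESeq2 and deepTools 3.2 and the build was ce10, with no role stated. Which counter made the gene table, with which strand setting, is not given in the sources used here. Special lines of the table were excluded: reads without a feature were 23.65 to 57.06% of a column and ambiguous reads 0.83 to 10.7%. A second deposited table, made by featureCounts 1.5.0-p2 on ce10 per the file headers, gave exon positions and lengths. The lengths of 37 of the 39 members are multiples of 3, and those of ins-8 (364 bases) and ins-36 (394 bases) are not. They were taken as coding lengths for all members. Its 32 columns of spliced-leader counts could not be tied to a sample and were left aside.

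Counts were fitted with edgeR 4.0.16 (limma 3.58.1, R 4.3.3): TMM scaling, filterByExpr with a minimum count of 10, 1 mean per group over all 16 libraries, and the two-sided quasi-likelihood F test with Benjamini-Hochberg adjustment over 15845 genes and a threshold of 0.05. Standard errors are the size of the log2 change over the root of F. The residual degrees of freedom were 8 and the biological coefficient of variation 17.3%. The fit was tested on simulated data. No 2 libraries of a group agreed within sampling noise (chi-square per degree of freedom 55.1 to 468), so none was treated as a repeat deposit of another. This does not show that they came from separate cultures. Counting intervals and floors of 3 counts cover counting error only. No genome or protein sequence was used.

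Members, lists and tests were chosen with earlier results of these data known. Named in full are members called for food in either strain, for a difference between strains in response, or for the inhibitor. The other members are given by range and count, with the stated strain differences added after their values were seen. From each of 4 pathway lists, up to 4 called genes with the smallest adjusted p for food in wild type are named, plus daf-2, daf-16 and cdk-12. Alternatives were DESeq2 1.42.0, total counts with and without rrn-2.1, no filter, a replicate block, only the groups compared, and each library left out.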

Additional observations from a re-analysis of the deposited data

Results flagged for a closer look

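The food response of ins-26 differed between the strains by the test of the difference itself, cdk12-as minus wild type, at -1.19 ± 0.32 on the log2 scale (edgeR adjusted p = 0.0478, n = 2 libraries in each of 4 groups). The food response of ins-30 differed likewise, at -1.06 ± 0.26 (edgeR adjusted p = 0.0323). In both genes the estimate was smaller in cdk12-as, at 0.41 and 0.19, than in wild type, at 1.60 and 1.25. The call of ins-26 was lost whichever of the 8 libraries was left out and that of ins-30 for 7 of the 8, and on total gene counts both were lost (adjusted p of 0.592 and 0.644). Sensory-neuron markers, of which 10 of 10 were counted, summed to 106 to 111 CPM in fed and at least 128 CPM in starved cdk12-as larvae, against 132 to 138 CPM in fed and 93.3 to 110 CPM in starved wild-type larvae. Their part in these differences was not tested.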

How the results depend on the processing

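Of the 61 calls of insulin-like genes over 13 comparisons, none changed sign under any alternative run. DESeq2 kept 51 of the 59 it could give, total gene counts in place of TMM kept 30, total counts without rrn-2.1 kept 58, no filter on low counts kept 56, and fitting only the groups compared kept 44 of 53. Leaving out single libraries kept 23 through every omission and ended 38 at least once; the library left alone is then assumed to vary like the other groups. Total count scaling moved the median of all genes for food in wild type to -0.38, against -0.01 with TMM. It moved that of the insulin-like genes to -0.02, against 0.34. There it left 3 genes called higher and 7 lower, against 6 and 7. Standard errors grew too, as for ins-30 from 0.19 to 0.35.

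With total gene counts the number called was 1 for food in cdk12-as (4 with TMM), 0 for the difference in food response (2), 0 for the inhibitor in fed cdk12-as (1), 1 for food with inhibitor in cdk12-as (4), 0 for further starvation in cdk12-as (1), and, for the strains, 6 in start larvae (11), 3 in starved (9), 2 in fed (5) and 6 in fed larvae with inhibitor (10). The difference in food response gave 1 without the filter and 1 on total counts without rrn-2.1. The inhibitor in fed cdk12-as gave 0 with DESeq2 and 0 in its own groups, further starvation in wild type 2 with DESeq2 and 2 on total counts without rrn-2.1 (1 with edgeR and TMM), further starvation in cdk12-as 0 in its own groups, and the strains after food with inhibitor 6 in their own groups. The cause of these shifts was not tested, beyond the smaller number of libraries where only the groups compared were fitted.

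With 1 library left out, the number called was 9 to 11 for food in wild type, 1 to 2 for food in cdk12-as, 0 to 1 for the difference in food response and for the inhibitor in fed cdk12-as, and 1 to 5 for food with inhibitor in cdk12-as. It was 0 to 1 for further starvation in wild type and 0 to 2 in cdk12-as. For the strains it was 7 in each case in start larvae, 4 to 8 in starved, 2 to 3 in fed and 7 to 10 in fed larvae with inhibitor.

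Same-numbered libraries deviated together from their group means, with correlations of 0.209 to 0.536 within a strain and 0.141 to 0.444 between strains. With only 2 numbers, and no label naming what a number shares, they were not taken as pairs. A replicate block kept all 61 calls and gave 7 calls for food with inhibitor in cdk12-as (4 without it), 3 for further starvation in wild type (1) and 2 in cdk12-as (1).

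Depth limits the 9 untested genes and the 13 tested ones with under 10 counts in some library, among them ins-5, ins-13, ins-25, ins-36 and ins-37.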
